A study of Mus musculus with 4 samples.

Results

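The genes described here encode the contents of neutrophil primary (azurophil) granules, together with genes that are switched on beside them in early granulocyte progenitors. They are *Mpo*, *Elane*, *Prtn3*, *Ctsg*, *Ms4a3*, *Ctsc*, *Cst7*, *Srgn* and *Nkg7*. They were taken by gene symbol from the table of counts, and all 9 of 9 listed genes were found among its 12067 genes. All 9 also passed edgeR's filter on low counts.

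The 4 Quant-seq libraries were made from KL cells, which are bone marrow myeloid progenitors that carry c-Kit but neither Sca-1 nor lineage markers, sorted as CD45.2+ donor cells 20 weeks after whole bone marrow was transplanted into congenic *Ptprca* recipients. Of these, 2 libraries came from BcorΔE9-10 donors, labelled scl-Cre-ERT +; Bcorfl/y, and 2 came from BcorWT donors, labelled Bcorfl/y. Donors of both genotypes thus carried a floxed *Bcor* allele, with exons 9 and 10 between loxP sites. Only the BcorΔE9-10 donors carried the tamoxifen-inducible Cre, which is driven by a stem cell enhancer of *Scl* (*Tal1*). The study's methods describe male donors given 5 mg tamoxifen over 5 days at 3 to 6 months of age, and female recipients irradiated with 5.5 Gy. The labels do not say whether the libraries of 1 genotype came from different donors, so the p-values below measure only the spread between these libraries.

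Primary granules form at the promyelocyte stage and store proteins that kill and digest microbes after phagocytosis. Myeloperoxidase, encoded by *Mpo*, makes hypochlorous acid. Neutrophil elastase (*Elane*), proteinase 3 (*Prtn3*) and cathepsin G (*Ctsg*) are serine proteases that are made as inactive precursors. Cathepsin C (*Ctsc*), also called dipeptidyl peptidase I, removes a short N-terminal stretch from these precursors and so activates them, and cystatin F (*Cst7*) is an inhibitor of cathepsin C. The proteoglycan serglycin (*Srgn*) holds positively charged proteins in the granule. *Ms4a3* encodes a membrane protein that marks granulocyte-monocyte progenitors, and *Nkg7* encodes a granule membrane protein best known from natural killer cells and cytotoxic T cells.

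*Prtn3* and *Elane* are neighbours on mouse chromosome 10, on the same strand and with 3072 bases between them in the GENCODE M21 annotation of GRCm38 (mm10). *Prtn3* lies on chromosome 10 from 79874476 to 79883174 and *Elane* from 79886247 to 79888215. *Srgn* lies on the same chromosome from 62493833 to 62527451. *Mpo* lies on chromosome 11 from 87793581 to 87804413 and *Ctsg* on chromosome 14 from 56099881 to 56102574. *Ms4a3* lies on chromosome 19 from 11629496 to 11640851 and *Cst7* on chromosome 2 from 150570415 to 150578944. *Nkg7*, from 43437073 to 43438249, and *Ctsc*, from 88278085 to 88310888, both lie on chromosome 7.

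The sequences upstream of 4 genes are shown because *Elane* and *Nkg7* varied most between the BcorWT libraries, *Prtn3* is the neighbour of *Elane* and varied little, and *Ctsg* encodes a related protease elsewhere in the genome. Each is the reference sequence from RefSeq (GRCm38.p6), begins 250 bases before the RefSeq transcription start, runs 5′ to 3′ on the gene's strand, and stops before the first base that GENCODE places in an exon of the gene. The *Prtn3* window lies inside the longer gene model that GENCODE gives, because the RefSeq start is farther downstream. The windows are chr10:79886062-79886246 (plus strand) for *Elane*, chr10:79879417-79879613 (plus) for *Prtn3*, chr7:43436888-43437072 (plus) for *Nkg7* and chr14:56102575-56102824 (minus) for *Ctsg*. Capitals mark letters that match a core of PU.1 (GAGGAA), Runx (TGTGGT) or Myb (AACTG) on either strand.
Elane: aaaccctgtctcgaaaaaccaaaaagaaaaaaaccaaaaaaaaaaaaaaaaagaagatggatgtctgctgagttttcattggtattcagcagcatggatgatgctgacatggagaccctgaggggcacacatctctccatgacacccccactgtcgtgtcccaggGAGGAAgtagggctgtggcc
Prtn3: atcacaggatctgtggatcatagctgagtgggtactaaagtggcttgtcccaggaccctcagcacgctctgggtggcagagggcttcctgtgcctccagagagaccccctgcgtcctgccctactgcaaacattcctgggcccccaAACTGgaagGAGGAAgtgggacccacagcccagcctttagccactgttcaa
Nkg7: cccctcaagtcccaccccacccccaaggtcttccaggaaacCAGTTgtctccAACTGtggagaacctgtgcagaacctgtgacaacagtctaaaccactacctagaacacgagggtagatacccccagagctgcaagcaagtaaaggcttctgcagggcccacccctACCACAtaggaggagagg
Ctsg: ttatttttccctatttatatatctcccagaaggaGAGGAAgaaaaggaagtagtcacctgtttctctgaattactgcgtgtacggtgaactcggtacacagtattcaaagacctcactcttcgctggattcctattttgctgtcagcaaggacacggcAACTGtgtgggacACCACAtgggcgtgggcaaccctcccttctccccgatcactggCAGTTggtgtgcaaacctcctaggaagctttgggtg

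In the 250 bases before each RefSeq start, GAGGAA or its reverse complement occurred in 5 of the 10 member promoters (*Mpo*, *Elane*, *Prtn3*, *Ctsg* and *Ctsc*; *Srgn* has 2 promoters), beside 23.3% of all 32851 promoters in the RefSeq table. In *Elane* and *Prtn3* it lay at a similar distance from the start, from -85 to -80 and from -95 to -90. TGTGGT occurred in 4 of the 10 (14.0% of all promoters) and AACTG in 7 of the 10 (39.1%). The C/EBP core TTGCNNAA occurred in 0 of the 10, beside 9.56% of all promoters. In these windows 0 pairs of matches to different cores overlapped. Such matches are a description of letters, not of binding.

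Library totals ranged from 3825290 to 6253100 counts, and a floor of 3 counts corresponded to 0.489 to 0.876 CPM (CPM being the counts of a gene relative to the library total, scaled by edgeR's TMM factors). The 9 genes together held 1.20% of the counts in BcorΔE9-10 replicate 1 (95% Wilson interval 1.19 to 1.21%) and 0.839% in replicate 2 (0.832 to 0.847%). They held 1.02% in BcorWT replicate 1 (1.01 to 1.03%) and 1.22% in BcorWT replicate 2 (1.21 to 1.23%). *Gm42418*, a single non-coding transcript, took between 1.43% (BcorWT replicate 2) and 27.9% (BcorWT replicate 1) of a library. Without its counts the 9 genes held 1.43 and 0.980% in BcorΔE9-10 and 1.42 and 1.24% in BcorWT, so that BcorΔE9-10 replicate 1 was highest and BcorWT replicate 1 stood above replicate 2. The groups overlapped either way. BcorWT replicate 2 stood apart over all genes: its log2 CPM correlated with those of the other libraries at 0.893 to 0.902 across genes, which are not independent replicates. The other pairs of libraries had 0.924 to 0.947, and the 2 BcorWT libraries formed the lowest pair. *Bcor* itself had 104 and 113 counts in BcorΔE9-10 and 58 and 79 in BcorWT, which does not check the genotype because 3′ reads lie outside the deleted exons.

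The cells behind these values were first checked against marker genes. *Kit* had 52.1 and 61.9 CPM in BcorΔE9-10 and 53.7 and 29.4 CPM in BcorWT, lowest in BcorWT replicate 2. *Ly6a*, which encodes the excluded Sca-1, ranged from 0 to 3.80 CPM. Also listed for the gate, *Ptprc* had 104 and 149 CPM against 96.1 and 81.9 CPM. *Cd34* had 52.1 and 41.7 against 59.0 and 64.2 CPM, and *Flt3* 6.28 and 4.73 against 9.93 and 6.96 CPM. Of these 5 markers, 2 were higher and 3 lower in BcorΔE9-10, 0 at an unadjusted p under 0.05 in edgeR. All 8 mature neutrophil markers (*Ltf*, *Camp*, *Ngp*, *Lcn2*, *Mmp8*, *S100a8*, *S100a9* and *Retnlg*) were detected in every library although the sort was for lineage-negative cells. Their summed level was 63364 and 155144 CPM in BcorΔE9-10 and 94398 and 143510 CPM in BcorWT, against 8556 to 11455 CPM for the 9 primary granule genes. The mature marker sum was lowest in BcorΔE9-10 replicate 1 and highest in BcorΔE9-10 replicate 2, and its groups overlapped.

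The comparison of BcorΔE9-10 with BcorWT asked whether primary granule genes differ in KL cells that lack intact Bcor. None of the 9 genes passed the test. At an adjusted p under 0.05, 0 of 9 were called by edgeR's quasi-likelihood test with Benjamini-Hochberg adjustment over all genes, and limma-voom and DESeq2 also called 0. The percentage called among all 12067 genes was 0.0166%, or 2 genes. At an unadjusted p under 0.05, 0 of 9 members passed in each of the 3 tools, where 4.42% of all genes passed in edgeR. The direction was mixed, with 3 members higher (*Ctsg*, *Ms4a3* and *Srgn*) and 6 lower in BcorΔE9-10. Their median log2 fold change was -0.11, beside -0.03 over all genes. In bulk RNA, fewer cells of a type and less RNA per cell cannot be told apart.

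**Figure D1:**
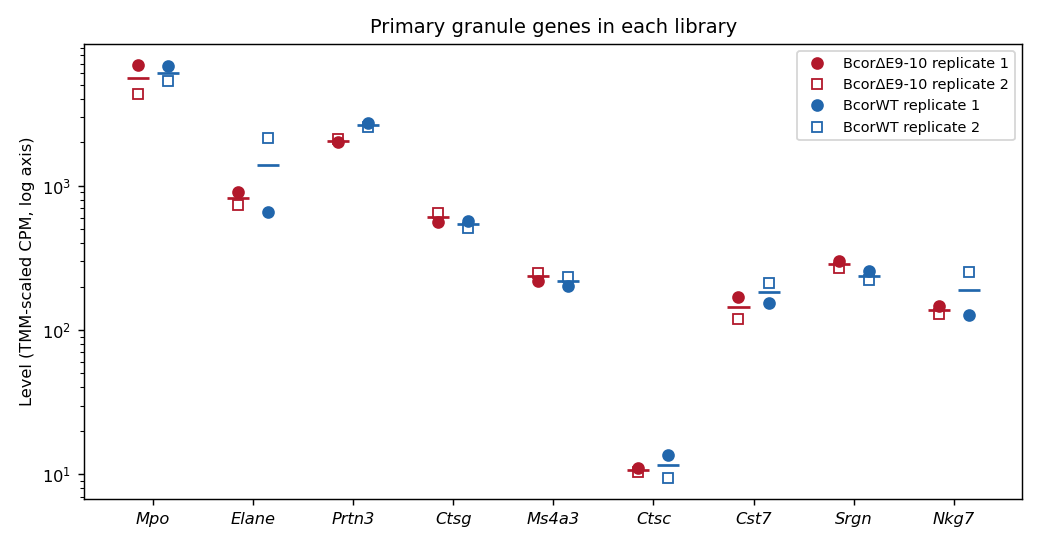
Level of each primary granule gene in each library (TMM-scaled CPM, log axis). Filled circles are replicate 1 and open squares replicate 2 of BcorΔE9-10 (red) and BcorWT (blue), and horizontal bars are the mean of 2 libraries. On this log axis the widest gap within a genotype is that of *Elane* in BcorWT, between 656 and 2140 CPM.

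*Mpo* had the highest CPM of the 9 genes in every library. It had 37272 and 26281 counts in BcorΔE9-10 and 22916 and 28327 counts in BcorWT, or 6888.5 and 4284 CPM against 6692 and 5331 CPM. The highest and the lowest library were both BcorΔE9-10, and both BcorWT libraries lay between them. The mean was 5586 ± 1842 CPM (SD, n = 2) in BcorΔE9-10 and 6011 ± 963 CPM in BcorWT. The log2 fold change was -0.11 (standard error 0.40, 95% interval -1.04 to 0.83, edgeR adjusted p = 0.986). It changed sign, to 0.20, without BcorΔE9-10 replicate 2, and to 0.06 without BcorWT replicate 1.

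Among the serine proteases, *Elane* varied most. It had 4889 and 4488 counts in BcorΔE9-10, and 2245 and 11372 counts in BcorWT. On the CPM scale these were 904 and 732 against 656 and 2140. The lowest and the highest library were thus both BcorWT, and both BcorΔE9-10 libraries lay between them. BcorWT replicate 2 had 3.26 times the level of BcorWT replicate 1. The mean was 818 ± 122 CPM (SD, n = 2) in BcorΔE9-10 and 1398 ± 1050 CPM in BcorWT. The log2 fold change was -0.77 (standard error 0.54, 95% interval -2.02 to 0.47, edgeR adjusted p = 0.945).

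The call for *Elane* depended on which BcorWT library was kept. Without BcorWT replicate 1 its log2 fold change was -1.39, with an edgeR adjusted p of 0.0489, the lowest over its alternatives, which reached 0.99997. Without BcorWT replicate 2 the sign turned, to 0.32 (edgeR adjusted p = 0.957). Leaving out BcorWT replicate 1 brought 4.94% of all genes (596 of 12063) to an adjusted p under 0.05, so 1 of 9 members called there is read against that percentage. At an unadjusted p under 0.05 the same fit gave 2 of 9 members, *Elane* and *Nkg7*, where 25.0% of all genes passed. In these fits the lone BcorWT library is assumed to vary like the other group.

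*Prtn3*, the neighbour of *Elane*, had 1993 and 2113 CPM in BcorΔE9-10 and 2735 and 2548 CPM in BcorWT. Both BcorΔE9-10 libraries lay below both BcorWT libraries, and the replicates of each genotype were close. The mean was 2053 ± 84.9 CPM (SD, n = 2) against 2641 ± 132 CPM. The log2 fold change of -0.36 (standard error 0.34, 95% interval -1.15 to 0.42) had an edgeR adjusted p of 0.945, and stayed between -0.41 and -0.32 when a library was left out. It was the only member whose groups did not overlap with BcorΔE9-10 lower, an arrangement found for 17.1% of all genes.

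*Ctsg* had 561 and 650 CPM in BcorΔE9-10 against 568 and 509 CPM in BcorWT, so the groups overlapped. Its log2 fold change was 0.17 (standard error 0.32, 95% interval -0.58 to 0.92, edgeR adjusted p = 0.966).

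The protease-activating enzyme and its inhibitor were at lower levels. *Ctsc* had 60 and 64 counts in BcorΔE9-10 and 47 and 50 counts in BcorWT, or 11.1 and 10.4 CPM against 13.7 and 9.41 CPM. Both BcorΔE9-10 values fell between those of BcorWT. The log2 fold change was -0.10 (standard error 0.43, edgeR adjusted p = 0.986), positive at 0.19 without BcorWT replicate 1. *Cst7* had 169 and 119 CPM against 154 and 213 CPM, a log2 fold change of -0.35 (standard error 0.35, edgeR adjusted p = 0.946). The lowest library for *Cst7* was BcorΔE9-10 replicate 2 and the highest BcorWT replicate 2.

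*Srgn*, the granule proteoglycan gene, had 299 and 271 CPM in BcorΔE9-10 and 255 and 221 CPM in BcorWT. Both BcorΔE9-10 libraries were above both BcorWT libraries, as was the case for 16.8% of all genes. The log2 fold change was 0.26 (standard error 0.31, 95% interval -0.47 to 0.99, edgeR adjusted p = 0.952) and stayed between 0.16 and 0.36 when a library was left out.

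Of the membrane proteins, *Ms4a3* had the smaller difference. It had 220 and 250 CPM in BcorΔE9-10 and 201 and 234 CPM in BcorWT, and the groups overlapped. Its log2 fold change was 0.11 (standard error 0.31, edgeR adjusted p = 0.976), and -0.0011 without BcorWT replicate 1. *Nkg7* had 147 and 128 CPM against 128 and 251 CPM, with BcorWT replicate 2 apart from the other 3 libraries. Its log2 fold change was -0.46 (standard error 0.39, edgeR adjusted p = 0.945). Without BcorWT replicate 1 it was -0.87 (edgeR adjusted p = 0.0900), and without BcorWT replicate 2 it was 0.11.

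**Figure D2:**
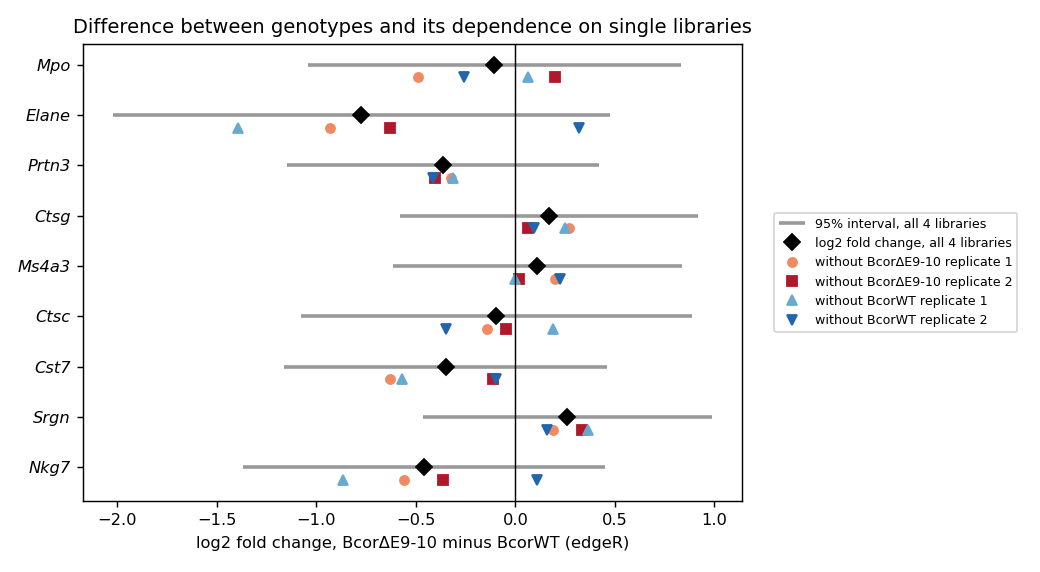
Log2 fold change of each gene between BcorΔE9-10 and BcorWT (black diamonds, edgeR) with its 95% interval (grey), and the same value with each library left out (coloured symbols below). All 9 intervals include 0, and *Elane* ranges from -1.39 to 0.32 with single libraries left out.

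The intervals of the 9 genes bound what these libraries could show. The narrowest, that of *Srgn*, spanned 1.45 on the log2 scale, so a p that missed the threshold does not show equal levels. An exact permutation test of 2 against 2 libraries cannot give a two-sided p below 0.33, and none was run.

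The spread between the libraries of 1 genotype was then read gene by gene, as the difference in log2 CPM (prior count 2) between replicate 2 and replicate 1. In BcorWT, *Elane* differed by 1.71, and 867 of all genes (7.18%) differed by at least as much in either direction. *Nkg7* differed by 0.97 and *Cst7* by 0.47, both higher in replicate 2. The remaining 6 genes differed by between -0.53 (*Ctsc*) and 0.22 (*Ms4a3*). The absolute difference over all genes had a median of 0.57 in BcorWT and 0.31 in BcorΔE9-10. In BcorΔE9-10 the member that differed most was *Mpo*, at -0.69, followed by *Cst7* at -0.51. *Elane*, *Nkg7* and *Cst7* were lower in BcorΔE9-10 replicate 2 than in replicate 1, whereas *Ms4a3* was higher in replicate 2 of both genotypes.

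**Figure D3:**
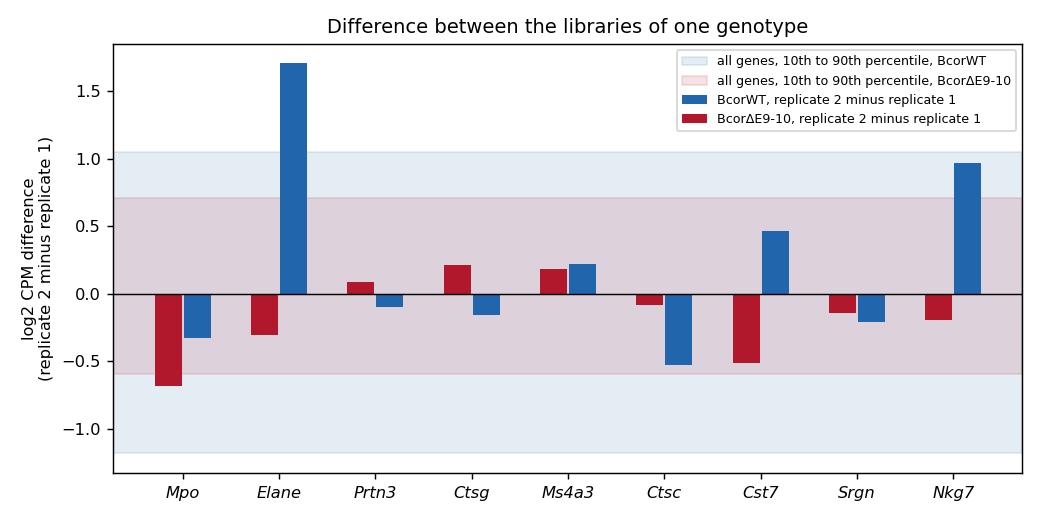
Difference in log2 CPM between replicate 2 and replicate 1 of BcorΔE9-10 (red bars) and of BcorWT (blue bars) for each gene, over shaded bands that hold the middle of all genes, from the 10th to the 90th percentile. Only *Elane* in BcorWT (1.71) and *Mpo* in BcorΔE9-10 (-0.69) lie outside their own band.

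Ratios of counts within a library do not depend on scaling between libraries. Each transcript gives reads near its 3′ end in Quant-seq, so these counts were not divided by length. *Prtn3* had 2.21 and 2.89 counts for each count of *Elane* in BcorΔE9-10, and 4.17 and 1.19 in BcorWT. For *Mpo* to *Elane* the ratios were 7.62 and 5.86 against 10.2 and 2.49, and for *Ctsg* to *Elane* 0.621 and 0.888 against 0.866 and 0.238. In each of these 3 ratios BcorWT replicate 2 was the lowest library, and all 3 share the *Elane* count, so they restate its level there. *Cst7* to *Nkg7*, which do not involve *Elane*, stayed between 0.849 and 1.21 in the 4 libraries. *Ms4a3* to *Mpo* was 0.0320 and 0.0583 against 0.0301 and 0.0440, and *Ctsc* to *Elane* 0.0123 and 0.0143 against 0.0209 and 0.0044. The groups overlapped in all 6 ratios computed.

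As parts of the summed CPM of the 9 genes, *Mpo* made up 61.6 and 50.1% in BcorΔE9-10 and 58.7 and 46.5% in BcorWT. *Elane* made up 8.07 and 8.55% against 5.75 and 18.7%. *Prtn3* stayed between 17.8 and 24.7% in all libraries. The whole sum was 9874 ± 1864 CPM (SD, n = 2) in BcorΔE9-10 and 11429 ± 37.7 CPM in BcorWT. The near equality of the BcorWT libraries in the sum came with opposite differences in its parts, since without *Mpo* the sum was 4710 and 6125 CPM in BcorWT and 4303 and 4272 CPM in BcorΔE9-10.

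**Figure D4:**
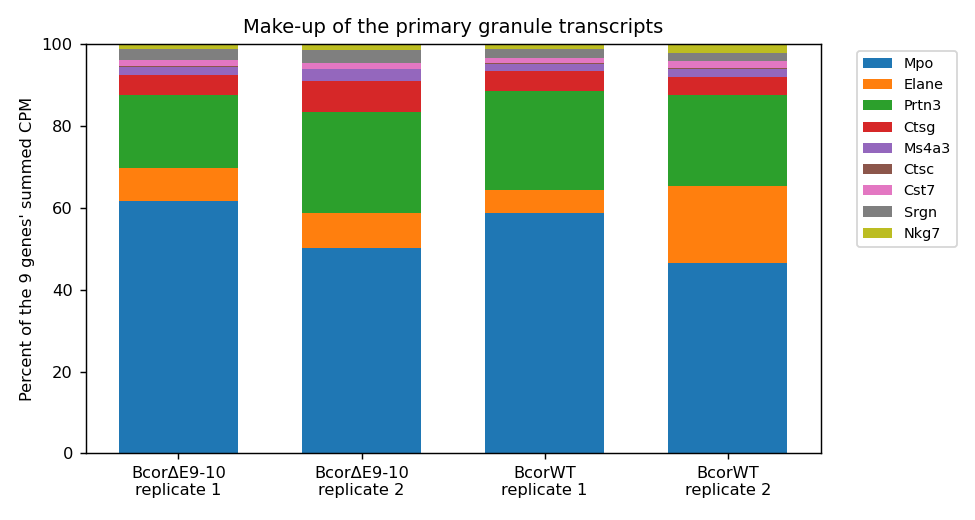
Percentage of the 9 genes' summed CPM that each gene contributed in each library. *Elane* (orange) takes 18.7% in BcorWT replicate 2 and between 5.75 and 8.55% in the other 3 libraries.

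Other genes of granule formation were read from lists, of which 0 of 19 contents, 0 of 7 inhibitors, 0 of 12 regulators, 0 of 22 synthesis and sorting genes and 0 of 15 progenitor markers passed an unadjusted p under 0.05 in edgeR, or an adjusted one. Among 19 other primary granule and lysosomal contents, 2 were higher and 17 lower in BcorΔE9-10, with a median log2 fold change of -0.27. BcorWT replicate 2 was the highest library for 14 of them (73.7%), and for 34.5% of all genes. By the difference in mean log2 CPM, 17 of the 19 were lower in BcorΔE9-10 with all libraries (median -0.23), beside 50.8% of all genes. Without BcorWT replicate 2, 9 of the 19 were lower and the median turned to 0.13. Without BcorWT replicate 1, 17 were lower (median -0.60). Without BcorΔE9-10 replicate 1 or replicate 2, 14 and 15 were lower (medians -0.21 and -0.24). *Prss57*, a serine protease of the same granule, had 206 and 161 CPM against 155 and 301 CPM, and *Lyz2*, which encodes lysozyme, 865 and 2291 against 1074 and 2355 CPM. *Cd63*, a granule membrane tetraspanin, had 2168 and 1958 CPM against 1881 and 3098 CPM. *Prss57* and *Cd63* thus had the lowest and the highest library in BcorWT, as *Elane* did.

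The regulators showed no common direction, with 7 of 12 higher, 5 lower and a median of 0.10. *Spi1*, which encodes PU.1, had 172 and 164 CPM in BcorΔE9-10 and 154 and 400 CPM in BcorWT. *Myb* had 400 and 307 CPM against 265 and 215 CPM (a log2 fold change of 0.56 with standard error 0.33 and an edgeR adjusted p of 0.945), and *Irf8*, a monocyte and dendritic cell regulator, 244 and 188 against 280 and 274 CPM. *Cebpa*, which encodes a C/EBP factor of the granulocyte lineage and was named after its values were seen, had 196 and 121 CPM against 159 and 345 CPM. *Spi1* and *Cebpa* were the 2 of the 12 regulators (16.7%) with their highest level in BcorWT replicate 2, beside 34.5% of all genes.

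Of the 7 protease inhibitors found, 3 were higher and 4 lower (median -0.23). *Serpinb1a*, an inhibitor of elastase, proteinase 3 and cathepsin G, had 281 and 371 CPM in BcorΔE9-10 and 316 and 317 CPM in BcorWT, a log2 fold change of 0.05 (standard error 0.33). *Slpi*, a secreted inhibitor of elastase and cathepsin G, had 158 and 153 CPM against 193 and 399 CPM, a log2 fold change of -0.93 (standard error 0.41, edgeR adjusted p = 0.945). The highest library was BcorWT replicate 2 for *Slpi* and for 2 of the 7 inhibitors in all (28.6%), beside 34.5% of all genes. Among the 22 genes of granule protein synthesis and sorting, 6 were higher and 16 lower (median -0.13). *Calr*, a chaperone that takes part in myeloperoxidase folding, had 759 and 609 CPM against 892 and 836 CPM, which gave -0.34 (standard error 0.33) on the log2 scale. The 15 progenitor markers split into 7 higher and 8 lower. The median over these markers was -0.00. The most abundant, *Plac8*, had 1473 and 1862 CPM against 2023 and 1316 CPM.

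Genes of later granules were read in the same way. The 14 secondary and tertiary granule genes (4 higher and 10 lower in BcorΔE9-10, median -0.47, 0 at an unadjusted p under 0.05 in edgeR) summed to 64085 and 157075 CPM in BcorΔE9-10 and 95662 and 146085 CPM in BcorWT. BcorΔE9-10 replicate 2 had the highest sum of late granule genes and the lowest of primary granule genes. Both sums rest on a few abundant genes. *S100a8* alone gave 72238 CPM of the late sum there, and without *Mpo* the primary sums were 4303 and 4272 CPM in BcorΔE9-10. Of the 14 late granule genes, 8 (57.1%) were highest in BcorWT replicate 2, beside 34.5% of all genes, and 6 in BcorΔE9-10 replicate 2. Whether the sums differ in their pattern was not tested. *Ngp* and *Lcn2* were highest in BcorWT replicate 2, at 54004 and 2056 CPM, whereas *Camp* (16382 CPM) and *S100a8* (72238 CPM) were highest in BcorΔE9-10 replicate 2. The part of mature neutrophil RNA in the values of the 9 genes was not tested.

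**Figure D5:**
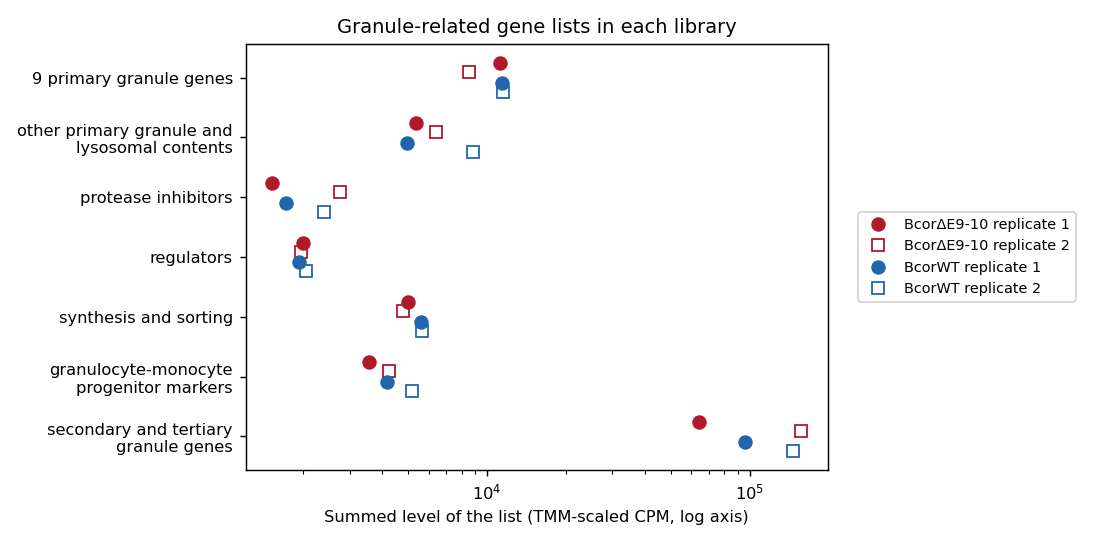
Summed level (TMM-scaled CPM, log axis) of each granule-related gene list in each library, with filled circles for replicate 1 and open squares for replicate 2. The 9 primary granule genes span 8556 to 11455 CPM, and the secondary and tertiary granule genes 64085 to 157075 CPM.

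Markers of other lineages were read beside these values. Among all 12067 genes, 162 were higher and 371 lower in BcorΔE9-10 at an unadjusted p under 0.05 in edgeR. For natural killer and cytotoxic T cells, which also use *Nkg7*, *Cst7*, *Srgn* and *Ctsc*, 4 of 13 markers were in the table (*Ccl5*, *Tbx21*, *Klrb1c* and *Ncr1*), and their sum was 5.36 and 7.82 CPM in BcorΔE9-10 and 16.6 and 16.7 CPM in BcorWT. All 4 were lower in BcorΔE9-10, 1 (*Ccl5*) at an unadjusted p under 0.05 and 0 after adjustment. Each had only 3 to 46 counts in a library, the least being at the floor of 3 counts, and the groups of *Ncr1* overlapped. Of 11 erythroid markers, 10 were higher in BcorΔE9-10, 6 of them at an unadjusted p under 0.05 in edgeR and 0 after adjustment, with sums of 215 and 193 CPM against 81.8 and 94.1 CPM. All 7 basophil and mast cell markers were lower, 3 at an unadjusted p under 0.05 and 0 after adjustment, with sums of 432 and 554 CPM against 781 and 1091 CPM. Of 8 monocyte and dendritic cell markers, 7 were lower and 0 passed either threshold. BcorWT replicate 2 was the highest library for 5 of these 8, beside 34.5% of all genes. All 4 megakaryocyte, 3 eosinophil and 3 B cell markers in the table were also lower, 1, 1 and 0 of them at an unadjusted p under 0.05 in edgeR and 0 after adjustment. In the same order, BcorWT replicate 2 was the highest library for 3, 3 and 2 of them. It was highest for 2 of the 4 natural killer and cytotoxic T cell, 3 of the 7 basophil and mast cell and 1 of the 11 erythroid markers. The part of these lineages in the values of the 9 genes was not tested.

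Among 2991 other genes with a mean above 50 CPM, the pattern over the 4 libraries closest to the mean pattern of the 9 genes (Euclidean distance of centred log2 CPM) was that of *Setd5*, at 0.018, followed by *Tmem258*, *Gbf1*, *Pgam1* and *Lage3*, up to 0.044. These 5 were picked as the closest. The members lay at distances from 0.35 (*Ms4a3*) to 1.12 (*Elane*) from their own mean pattern.

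Some counts are uncertain because of overlapping genes, as the sources used here do not state whether counting used the strand. *Mpo* overlaps the antisense gene *Gm11505*, which had 14 to 95 counts. *Prtn3* overlaps *Plppr3* on the opposite strand, which had 271 to 477 counts. *Ctsc* overlaps the opposite-strand *Gm26522*, which had 25 to 69 counts, close to the 47 to 64 counts of *Ctsc* itself. With overlapping genes left out, blastn aligned the protein-coding transcripts of 8 of the 9 genes to no other gene over at least 75 bases. *Srgn* had a stretch of 87 bases that was 90.8% identical to *Gm26699*.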

How the data were processed

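KL cells from transplanted marrow were profiled by Quant-seq 3′ mRNA sequencing, in 2 BcorΔE9-10 and 2 BcorWT libraries. The authors removed low-quality reads, trimmed reads using cutadapt, aligned them to mm10 by HISAT2 and obtained gene counts from subread featureCounts. The deposited values are counts per gene without normalization. For BcorΔE9-10 replicate 2 and BcorWT replicate 1 the deposited values were handled like estimated counts, because 1 gene (*Gm4430*) was not whole there, and all values were rounded. How that gene's values arose, and which genes were kept in the table, is not given in the sources used here. As the sources mention no molecular identifiers, the Wilson intervals of shares and the floor reflect counting error alone, whereas intervals of log2 fold changes rest on the spread between libraries.

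Genes were tested in edgeR 4.0.16 (R 4.3.3) with filterByExpr, which removed 0 genes, TMM scaling, a quasi-likelihood fit on genotype, a prior count of 0.125 and Benjamini-Hochberg adjustment over 12067 genes. Standard errors were derived from each log2 fold change and its F statistic. Alternatives were DESeq2 1.42.0 (its size factors and its test), limma-voom 3.58.1, other filters, a prior count of 2, a replicate block, leaving out *Gm42418* and leaving out each library. The fits were tested on simulated counts. Positions came from GENCODE M21, similar transcripts from blastn 2.17.0, and promoters from RefSeq. From each list, at most 4 genes with the highest mean CPM were to be named with values, with the 9 members and the 5 genes closest in pattern; *Prss57*, *Cebpa*, *Lcn2*, *Ly6a*, *Bcor*, *Gm42418*, *Mcpt8*, *Ms4a2* and the genes overlapping members were added with values already seen. The members, the lists and the tests were chosen with earlier results of these data known.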

Additional observations from a re-analysis of the deposited data

How the results depend on the processing

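Of the 72 log2 fold changes of the 9 genes in the 8 fits that kept all libraries, 72 had the direction reported, and 0 reached an adjusted p under 0.05. The fit without a filter repeated the reported fit, since the filter removed 0 genes. The prior count of 2 left the reported p-values unchanged, so neither was a separate check of the calls. Of 36 values with a library left out, 6 changed sign. The ranges with a library left out were -0.49 to 0.20 for *Mpo*, -1.39 to 0.32 for *Elane*, -0.0011 to 0.22 for *Ms4a3*, -0.35 to 0.19 for *Ctsc* and -0.87 to 0.11 for *Nkg7*. *Prtn3* (-0.41 to -0.32), *Ctsg* (0.06 to 0.27), *Cst7* (-0.63 to -0.10) and *Srgn* (0.16 to 0.36) kept their direction. The median of the 9 ranged from -0.32 to 0.091 (without BcorΔE9-10 replicate 1 and without BcorWT replicate 2), and the number of members at an unadjusted p under 0.05 from 0 to 2 (2 without BcorWT replicate 1). The number of all genes with an adjusted p under 0.05 was 2 as reported, 5 with at least 10 counts in every library, 4 with limma-voom and 43 with DESeq2, and from 6 to 596 with a library left out (596 without BcorWT replicate 1). Without BcorWT replicate 2, 9 of 19 other granule contents were lower instead of 17, and from 14 to 17 with any other library left out. These alternatives were chosen after seeing the data. The cause was not tested. The labels give same-numbered libraries only a number in common, and whether they shared a batch was not tested. Their deviations from the group means had a correlation of -0.094. With the replicate block 14 genes passed, 0 of them members. With 2 libraries a genotype, the spread between libraries limits every comparison here.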

Other observations

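*Mcpt8*, a basophil protease gene, is the coding gene nearest to *Ctsg* on chromosome 14, with 14607 bases between them. It and *Ms4a2* were picked after their values were seen, from 8 neighbours of members in the table that are not members themselves. *Mcpt8* had 27.5 and 36.2 CPM in BcorΔE9-10 and 131 and 116 CPM in BcorWT, a log2 fold change of -1.96 (standard error 0.33, edgeR adjusted p = 0.419), beside 0.17 for *Ctsg*. On chromosome 19, *Ms4a2*, a mast cell and basophil receptor gene 5776 bases from *Ms4a3*, had 12.0 and 8.15 CPM against 19.0 and 13.2 CPM, a log2 fold change of -0.67 (standard error 0.43, edgeR adjusted p = 0.945), beside 0.11 for *Ms4a3*. Whether the changes of neighbouring genes differ was not tested.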
